A study of Rattus norvegicus with 18 samples.

Results

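Rings of rat aorta exposed to vascular endothelial growth factor (VEGF) were compared with rings left untreated. The samples were taken by their titles, which gave 12 of the 18 arrays of the series and 6 of its 9 RNAs, 3 from VEGF-treated and 3 from untreated rings. Each RNA was hybridised to both arrays of an Affymetrix rat expression set, the RAE230A (array A) and the RAE230B (array B), which carry largely different probe sets, the groups of short probes that each read a transcript. The rings came from the thoracic aorta of male Fisher 344 rats with no stated genetic change. The labels give the age as 5 weeks and the design text as 1 month. All rings were 2 mm long and were kept in serum-free endothelial basal medium. VEGF rings received recombinant human VEGF at 10 ng/ml on day 13, and RNA was taken 20 h later per the labels (18 h per the design text). Untreated rings stayed in the same medium for 14 days. Each RNA pooled 4 to 6 rings. The 3 remaining RNAs came from rings given recombinant human angiopoietin-1 (Ang1) at 100 ng/ml with a poly-His antibody at 5 µg/ml, and they are used here to share the estimate of spread and to set VEGF values against a second ligand. No antibody is described for the other groups. According to the design text, 3 animals each gave 1 RNA to every group, so all groups share the same animals, although the labels do not tie a replicate number to an animal.

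VEGF binds the receptor tyrosine kinase VEGFR2, the product of Kdr, on endothelial cells, with neuropilin-1 as a co-receptor and VEGFR1, the product of Flt1, as a competing receptor. Receptor activation feeds calcium, calcineurin and MAP kinase signals that induce immediate early transcription factors, and it selects tip cells that lead new sprouts. The aortic ring is an explant in which endothelial sprouts grow out together with mural cells, fibroblasts and macrophages, so a whole-ring RNA mixes their transcripts, and a lower signal cannot tell fewer cells of a type from less RNA per cell.

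Defining markers of the labelled tissue were measured above the filter on low values. Among them were the smooth muscle genes Acta2 and Myh11, the endothelial genes Kdr, Pecam1 and Vwf, and the macrophage gene Cd68. Of 11 neutrophil markers listed, 4 were on array A and none of these passed the filter. On array B 1 of the 2 present passed it. Untreated replicate 2 stood apart from the other arrays, with a median correlation of 0.79 (array A) and 0.75 (array B), as did Ang1 replicate 2 (0.69 and 0.43), whereas the other RNAs lay between 0.81 and 0.94. The 3' signal of the housekeeping gene GAPDH was 64.4 in untreated replicate 2 on array A and 2218 to 3247 in the other untreated and VEGF RNAs. Values without untreated replicate 2 are therefore given beside the results that it carries. The ratio of 3' to 5' actin signal, a measure of RNA quality and labelling, ranged from 8.79 to 12.4 in VEGF and from 1.86 to 7.70 in untreated RNAs on array A, and from 5.24 to 11.9 and from 3.02 to 5.08, respectively, on array B. The actin ratio was thus higher in every VEGF array than in every untreated array of its type. The same ratio of GAPDH overlapped between the groups. On array A it ranged from 9.26 to 15.1 in VEGF and from 1.70 to 11.9 in untreated RNAs. On array B these ranges were 7.73 to 13.6 and 4.65 to 13.6. The part of either ratio in the differences below was not tested. Untreated replicate 1 was labelled by a procedure described as 2-cycle and the other RNAs by the standard one.

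No single transcript passed the threshold for a VEGF difference. Testing 9520 probe sets of array A and 9166 of array B with limma gave 0 with an adjusted p below 0.05, and the smallest adjusted p was 1.00 on array A and 0.999 on array B. At an unadjusted p below 0.05 there were 157 probe sets on array A (1.65%), of which 56 (0.588%) were higher and 101 (1.06%) lower after VEGF, and 66 on array B (0.72%), of which 35 (0.382%) were higher and 31 (0.338%) lower. Both totals lay below the share of 0.05 that such a threshold passes on average where nothing differs. With the replicate number as a block the count on array A was 294, of which 154 were higher (52.4% against 35.7%). On array B it was 98, of which 63 were higher. The split thus depends on the fit, and it depends on the scaling as well. Without quantile normalisation, 117 of 214 probe sets were higher on array A (54.7% against 35.7%), and 47 of 55 on array B (85.5% against 53.0%). The named genes below are therefore described by their values in every RNA, as log2(signal + 16), by whether the 3 VEGF values and the 3 untreated values overlap, and by the fitted difference, VEGF minus untreated, with its standard error (SE, n = 3 per group). The SE comes from the fit of all 9 arrays of a type, so it also carries the spread of the Ang1 RNAs. For Kdr the standard deviations were 0.05 (untreated), 0.21 (VEGF) and 0.91 (Ang1), and the SE was 0.41. Genes whose groups do not overlap are called apart, upward where the VEGF values were higher. Among 7177 genes on array A, each read by its brightest probe set, 276 (3.85%) had all VEGF values above all untreated ones and 328 (4.57%) had them below. Among 4035 genes on array B these numbers were 111 (2.75%) and 151 (3.74%). With 3 against 3 values in random order, a gene is apart in either direction with a probability of 0.1. Neither array exceeded that share, so apart describes the values of a gene and is not a call of a response. Without quantile normalisation, 407 genes on array A were apart upward and 277 downward, and 242 and 224 of these were the same genes.

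Ccm2 and Emcn had the smallest unadjusted p-values among the named genes that were higher on array A. Both are on the endothelial identity list, and the cells that gave their signal in whole-ring RNA were not identified. Ccm2 encodes a scaffold protein that works with Krit1 and Pdcd10 at endothelial junctions. Its level was 5.63, 6.34 and 5.66 in the untreated RNAs and 7.68, 7.5 and 9.11 in the VEGF RNAs, a 4.66-fold difference (2.22 ± 0.55, SE). The groups were well apart, and VEGF replicate 3 was the highest. Emcn encodes endomucin, a sialoprotein of capillary and venous endothelium. It read 6.44, 6.66 and 6.77 in untreated and 7.57, 7.47 and 7.57 in VEGF RNAs (0.91 ± 0.26). The VEGF values lay within a far narrower range than the gap between the groups. Both genes were also higher after VEGF than after Ang1, by 1.53 ± 0.55 for Ccm2 and 0.96 ± 0.26 for Emcn. However, limma gave an adjusted p of 0.972 in either case. Ang1 replicates 1 and 3 read 7.28 and 7.02 for Ccm2, above all its untreated values. Ang1 replicate 2, which stood apart, read below all of them. The size of the Ccm2 difference between VEGF and Ang1 is therefore uncertain. For the partners of Ccm2 the difference was 0.30 for Krit1 and -0.21 for Pdcd10, both with overlap. On array B the endothelial transcription factor gene Sox18 read 9.59, 9.12 and 9.23 in untreated and 9.94, 9.59 and 10.45 in VEGF RNAs, where the highest untreated and the lowest VEGF value were level to 2 decimals. Fli1, an ETS factor of endothelium and blood, was apart upward by a narrow margin (0.41 ± 0.38), and Tek, the Ang1 receptor, was apart downward, at 11.24, 11.11 and 11.49 against 10.93, 10.60 and 11.08 (-0.41 ± 0.35). Of 21 endothelial identity genes kept on array A, 14 were above 0 with a median difference of 0.16, against 49.8% of all genes and a median of -0.00. The endothelial median was -0.00 without untreated replicate 2. On array B 8 of 12 were above 0 with a median of 0.20, where 49% of all genes were above 0. Of these 12 genes, 2 were apart upward and 2 downward, against 2.75% and 3.74% of all genes.

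The VEGF receptors and ligands themselves gave small differences. Kdr read 8.72, 8.75 and 8.66 in untreated and 9.11, 8.72 and 8.77 in VEGF RNAs (0.16 ± 0.41), so the groups overlapped. Nrp1, the neuropilin-1 gene, was 0.66 ± 0.66 higher, but 0.22 without untreated replicate 2. Pgf, the gene of placental growth factor, was 0.52 ± 0.76 higher, and 0.31 without that RNA. The endogenous ligand genes Vegfa, Vegfb and Vegfc had differences of -0.07, -0.31 and -0.06. Of 9 genes of this list kept on array A, 4 were above 0, and none was apart between the groups. Without quantile normalisation Kdr was apart upward (difference 0.22), and the list median was 0.10 against -0.06 with it. Flt1, Esm1, Nos3 and Sele were below the filter on array A and have no value here.

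Among genes known to be induced early by VEGF signalling, Junb and Egr1 were apart on array A at 20 h. Junb encodes a subunit of the AP-1 transcription factor. It read 6.67, 5.39 and 6.95 in untreated and 7.60, 7.46 and 7.38 in VEGF RNAs (1.15 ± 0.40, and 0.68 without untreated replicate 2). Egr1, a zinc finger factor of the MAP kinase response, read 9.96, 9.44 and 9.98 against 10.22, 10.29 and 10.48 (0.54 ± 0.28, and 0.35 without untreated replicate 2). On array B the ETS factor gene Etv4 read 6.32, 4.55 and 7.23 against 7.36, 7.60 and 8.31 (1.72 ± 0.61, and 0.97 without untreated replicate 2). In all 3 genes the lowest untreated value was that of replicate 2. The calcineurin target Rcan1 (-0.15 ± 0.27) and the orphan receptor gene Nr4a1 (0.12 ± 0.31) overlapped between the groups, and the flow-responsive factor Klf2 was -0.65 ± 0.47. Of 21 genes of the early response list on array A, 13 were above 0 (median 0.13), and of 7 on array B all 7 were above 0 (median 0.22, and 0.12 without untreated replicate 2).

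Of the 18 tip cell and sprouting genes on array A, 2 were apart upward and 1 downward, against 3.85% and 4.57% of all genes. Without quantile normalisation 1 was apart upward and 2 downward. Apln, which encodes the peptide apelin of sprouting endothelium, read 6.96, 7.68 and 6.94 in untreated and 7.89, 7.74 and 8.21 in VEGF RNAs (0.75 ± 0.35, and 0.99 without untreated replicate 2). A second, dimmer probe set of Apln showed a difference of 0.03 ± 0.27, so the 2 probe sets disagree in size. Lamc1, a laminin chain of basement membrane, was 0.73 ± 0.46 higher, and 0.21 without untreated replicate 2. Its groups overlapped without quantile normalisation, and a dimmer probe set gave 0.18 ± 0.32. Marcks, a membrane protein that binds actin, read 9.32, 9.28 and 10.16 against 9.16, 8.86 and 9.19 by its brightest probe set (-0.52 ± 0.34). Another of its probe sets was apart upward, at 9.15, 8.62 and 8.72 against 10.23, 9.28 and 9.67 (0.90 ± 0.37), so the direction of Marcks is uncertain. Mmp14, the membrane-bound protease that sprouts use to cross matrix, was 1.19 ± 0.81 higher on array A and 0.62 ± 0.99 on array B. Both rest on untreated replicate 2, without which they were 0.22 and -0.50. Dll4, the Notch ligand of tip cells, was 0.44 ± 0.54 higher on array B, with overlapping groups, and 0.21 without untreated replicate 2. The list had 13 of 18 genes above 0 on array A (median 0.21) and 5 of 5 on array B (median 0.39, and 0.21 without untreated replicate 2). Its summed level, the mean deviation of its genes from the mean of the 6 RNAs, overlapped between the groups. On array A it was -0.22, -0.30 and 0.14 in untreated and -0.01, -0.05 and 0.44 in VEGF RNAs. On array B it was -0.11, -0.71 and 0.32 against -0.21, -0.03 and 0.74. VEGF replicate 3 was the highest on both. Over the alternative analyses the lowest medians were 0.04 (array A) and 0.05 (array B).

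**Figure D1:**
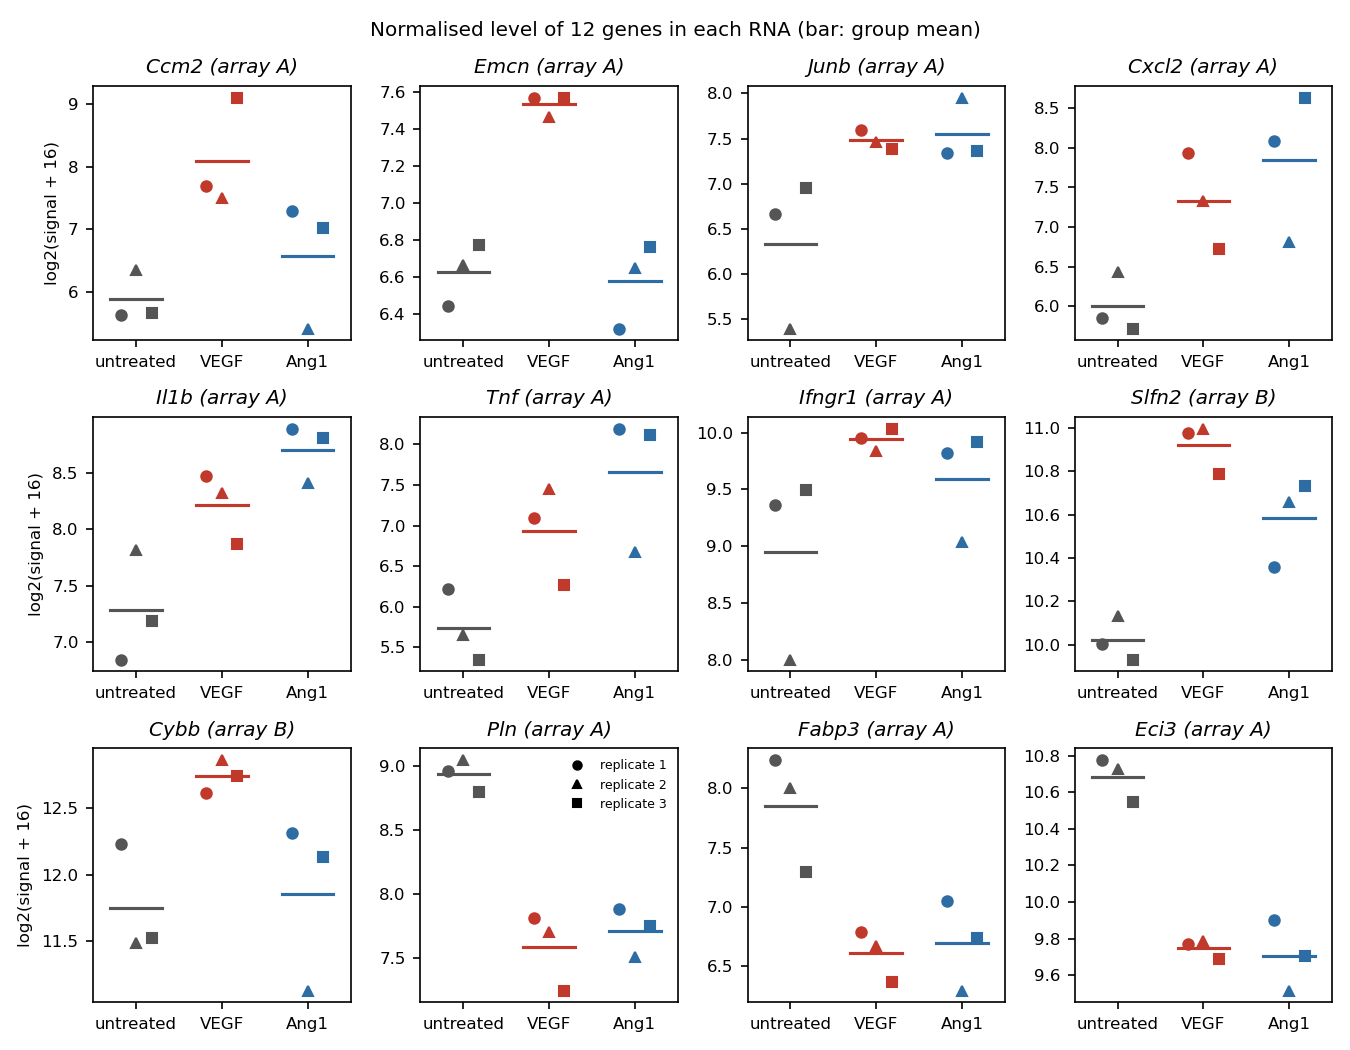
Each panel plots log2(signal + 16) of 1 gene in the 3 untreated, 3 VEGF and 3 Ang1 RNAs, with a bar at the group mean and the symbol giving the replicate number. The panels were chosen because untreated and VEGF values do not overlap, as in Ccm2 (5.63 to 6.34 against 7.5 to 9.11) and Pln (8.80 to 9.05 against 7.24 to 7.81), and the vertical axes differ between panels and do not start at 0.

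The chemokine genes had the largest median of the 36 lists on array A. Of 30 listed, 24 were on array A and 14 passed the filter. Of these 14, 13 were above 0, the median difference was 0.64, and 4 were apart upward, against 3.85% of all genes. The summed level of the list, its mean deviation from the mean of the 6 RNAs, was -0.43, 0.20 and -0.62 in untreated and 0.21, 0.28 and 0.36 in VEGF RNAs. Untreated replicate 2 came close to the VEGF RNAs here, and the median was 0.80 without it. Cxcl2 and Cxcl1 encode chemokines that attract neutrophils through the receptor CXCR2. Cxcl2 read 5.85, 6.43 and 5.72 in untreated and 7.93, 7.33 and 6.72 in VEGF RNAs (1.33 ± 0.48, 2.51-fold). Cxcl1 read 6.62, 7.0 and 7.78 against 8.56, 8.68 and 7.92 (1.25 ± 0.85). Both were apart, Cxcl1 by a small margin in replicate 3. Cx3cl1, the membrane-anchored chemokine of endothelium, read 9.26, 8.60 and 9.40 against 9.45, 9.72 and 10.69 (0.87 ± 0.36). The monocyte chemokine genes Ccl4 (0.67 ± 0.32), Ccl2 (1.00 ± 0.44) and Ccl3 (0.74 ± 0.39) were also higher on average, and of these only Ccl4 was free of overlap. On array B, where 5 chemokine genes were kept, 4 were above 0 with a median of 0.45, and Ccl7 had a difference of 0.64 ± 0.65. Without untreated replicate 2 these were 0.75 and 0.99.

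Many chemokine promoters carry sites for NF-kB, a transcription factor that inflammatory signals release into the nucleus, so the promoters of 4 genes that were apart upward and hold a match to its pattern are shown. They are windows of 300 bases from RefSeq on build GRCr8, running from 250 bases before to 50 bases after the start of the gene, in lower case on the gene's strand. Capitals mark matches, on either strand, to the kappa B pattern, which is GGGA, any 4 bases and then CC. None of the 4 windows holds the AP-1 pattern TGANTCA or the TATA pattern TATAAA. Cxcl2 is on chromosome 14 at 17467206 to 17467505, minus strand, and Cxcl1 at 17479272 to 17479571, minus strand. Irf1, an interferon regulatory factor gene of the NF-kB list, is on chromosome 10 at 38417685 to 38417984, plus strand. Tap1, a subunit of the peptide transporter that loads MHC class I, is on chromosome 20 at 4668494 to 4668793, minus strand.
Cxcl2: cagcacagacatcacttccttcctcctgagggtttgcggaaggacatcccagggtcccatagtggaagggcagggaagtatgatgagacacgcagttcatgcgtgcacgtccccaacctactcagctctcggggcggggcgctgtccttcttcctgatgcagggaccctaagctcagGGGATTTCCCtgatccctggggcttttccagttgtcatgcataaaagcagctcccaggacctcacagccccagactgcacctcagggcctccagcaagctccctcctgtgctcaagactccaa
Cxcl1: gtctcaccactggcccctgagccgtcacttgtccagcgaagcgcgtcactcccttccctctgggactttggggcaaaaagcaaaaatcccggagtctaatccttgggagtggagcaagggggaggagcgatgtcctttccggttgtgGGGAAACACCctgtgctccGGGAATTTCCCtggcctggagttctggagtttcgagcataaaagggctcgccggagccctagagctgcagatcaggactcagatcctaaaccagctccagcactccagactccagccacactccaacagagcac
Irf1: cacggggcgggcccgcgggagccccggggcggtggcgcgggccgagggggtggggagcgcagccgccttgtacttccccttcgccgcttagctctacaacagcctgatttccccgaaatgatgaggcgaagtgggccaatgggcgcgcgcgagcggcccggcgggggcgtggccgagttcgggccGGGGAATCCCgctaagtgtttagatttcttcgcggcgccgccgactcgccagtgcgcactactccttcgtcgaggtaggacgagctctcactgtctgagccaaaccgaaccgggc
Tap1: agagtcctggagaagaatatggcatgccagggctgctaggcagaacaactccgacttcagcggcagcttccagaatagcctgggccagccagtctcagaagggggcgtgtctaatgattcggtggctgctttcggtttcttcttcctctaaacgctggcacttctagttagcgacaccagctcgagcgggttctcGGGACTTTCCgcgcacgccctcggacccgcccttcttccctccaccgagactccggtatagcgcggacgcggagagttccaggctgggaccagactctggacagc
The match of Cxcl2, GGGATTTCCC, matches on both strands at position -73 from the gene start, and that of Tap1, GGGACTTTCC, is on the gene's strand at -55. Cxcl1 holds GGGAAACACC at -103 and GGGAATTTCC at -84 on the gene's strand, and a match on the other strand at -83 that overlaps the second. The match in Irf1, GGGGAATCCC, is on the other strand at -65. The kappa B pattern is common, with a match in 19.3% of all 33469 promoter windows, against 7.33% for the AP-1 and 14.2% for the TATA pattern. It occurred in 13 of the 23 chemokine windows that could be matched by symbol and in 14 of the 25 windows of NF-kB list genes. Of the 24 windows of the list of Tnf, interleukins and other cytokines, 7 held it. These counts take in genes whether or not they differed here. Among other genes that were apart upward, the windows of Cx3cl1, Il1b and Junb hold the TATA pattern and no kappa B match, and that of Tnf holds both. The windows of Emcn, Pln and Ccm2 held none of the 3 patterns. A match is a description of letters and not of binding.

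The cytokine genes Il1b and Tnf were apart upward as well. Il1b, the gene of interleukin-1 beta, read 6.85, 7.81 and 7.19 in untreated and 8.47, 8.32 and 7.87 in VEGF RNAs (0.94 ± 0.33). Tnf, the gene of tumour necrosis factor, read 6.21, 5.66 and 5.35 against 7.10, 7.45 and 6.27 (1.20 ± 0.47). In both genes the highest untreated value lay just under the lowest VEGF value. Il16, which encodes a lymphocyte attractant, was apart as well (0.57 ± 0.29). The rest of the list was mixed, with 10 of 17 genes above 0 (median 0.18). On array B 5 of 6 were above 0 (median 0.24), but the median was 0.07 without untreated replicate 2, -0.11 without VEGF replicate 3 and -0.08 with array weights.

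Of the NF-kB subunits and targets nearly all were above 0. Of 19 kept on array A, 18 were above 0, the median was 0.40, and 5 were apart upward, against 3.85% of all genes. These were Irf1, Tnip1, Nfkb2, Sod2 and Icam1. Irf1 read 7.68, 8.0 and 7.87 in untreated and 8.16, 8.63 and 8.36 in VEGF RNAs (0.54 ± 0.26). Tnip1, an inhibitor that restrains NF-kB signalling, read 8.30, 8.65 and 8.45 against 8.78, 9.00 and 9.35 (0.57 ± 0.32). Sod2, the mitochondrial superoxide dismutase gene, read 9.09, 8.56 and 8.96 against 10.21, 9.78 and 9.23 (0.87 ± 0.55). Icam1, the endothelial adhesion molecule for leukocytes, was 0.87 ± 0.65 higher and 0.46 without untreated replicate 2, and Nfkb2, an NF-kB subunit, was 0.49 ± 0.30 and 0.23. The relative of Icam1, Vcam1, overlapped (0.15 ± 0.39), and the survival genes Birc3 (0.54 ± 0.30) and Cflar (0.57 ± 0.32) overlapped by 1 untreated value each. In 9 of the 19 genes the VEGF value was higher in all 3 same-numbered pairs, against 12.3% of all genes. On array B 5 genes of the list were kept, of which 2 were above 0 (median -0.03), so the direction on array A was not seen there. That median was above 0 in 8 of 19 alternatives. It reached 0.26 with the mean of a gene's kept probe sets, so its sign is uncertain.

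Genes of MHC class I antigen processing were above 0 without exception on array A, 14 of 14, with a median of 0.47, and 4 were apart upward, against 3.85% of all genes. The summed level was -0.03, -0.54 and -0.22 in untreated and 0.40, 0.31 and 0.08 in VEGF RNAs, and the median was 0.39 without untreated replicate 2. Psmb10, an inducible catalytic subunit of the immunoproteasome, read 9.05, 7.65 and 8.77 against 10.01, 9.55 and 9.27 (1.12 ± 0.56, and 0.68 without untreated replicate 2). Tap1 read 7.42, 5.00 and 7.10 against 7.93, 8.10 and 7.55 (1.35 ± 0.76, and 0.60 without untreated replicate 2). Tapbp, the tapasin gene, read 7.5, 6.94 and 7.48 against 7.98, 7.77 and 7.85 (0.56 ± 0.28). The products of these 3 genes act in successive steps, from proteasome to transporter to loading. The difference was 0.02 for B2m, the light chain of class I, and 0.00 for Psme1, a proteasome activator. On array B only 2 genes of the list were kept, RT1-A2 at -0.45 and Psme1 at -0.06. MHC class II genes had 7 of 9 above 0 (median 0.31), and RT1-DMb, a chaperone of class II loading, was apart (0.58 ± 0.29).

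Both chains of the interferon-gamma receptor were apart upward. Ifngr1 read 9.36, 8.0 and 9.50 in untreated and 9.95, 9.84 and 10.04 in VEGF RNAs (0.99 ± 0.41, and 0.50 without untreated replicate 2). Ifngr2 read 8.48, 7.80 and 8.05 against 8.84, 8.89 and 9.05 (0.82 ± 0.29). Of 31 interferon response genes on array A, 26 were above 0 (median 0.37) and 5 were apart upward, against 3.85% of all genes. Without untreated replicate 3 the median was 0.018. Stat2, a transducer of type I interferon signals, was -0.88 ± 0.40 with overlapping groups, and -0.53 without untreated replicate 2, while its second probe set gave 0.24 ± 0.31. On array B Slfn2, a schlafen gene of lymphoid and myeloid cells, read 10.00, 10.13 and 9.93 against 10.98, 11 and 10.79 (0.90 ± 0.27), with a gap wider than the spread of either group. There 13 of 15 genes were above 0, with a median of 0.10 that was 0.36 without untreated replicate 2 and -0.04 without untreated replicate 3.

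The macrophage genes had a higher summed level after VEGF on array A, by a narrow margin, and on array B the highest untreated and the lowest VEGF level were equal to 2 decimals. The summed level was 0.19, -0.35 and -0.54 in untreated and 0.26, 0.21 and 0.23 in VEGF RNAs on array A, and 0.09, -0.12 and -0.42 against 0.13, 0.09 and 0.22 on array B. The VEGF RNAs were alike and the untreated ones were spread, with untreated replicate 1 close to the VEGF level. Of 27 genes kept on array A, 20 were above 0 (median 0.31), and of 9 on array B, 7 (median 0.19). Cybb, the catalytic subunit of the phagocyte NADPH oxidase, read 12.23, 11.49 and 11.52 against 12.61, 12.87 and 12.75 on array B (1.00 ± 0.35), and its array A probe set was 0.48 ± 0.35 higher with overlap. Adgre1, the gene of the F4/80 antigen, read 10.34, 10.62 and 10.32 against 11.52, 11.55 and 11.34 (1.04 ± 0.63). Gpnmb, a glycoprotein of phagocytes, read 12.44, 10.60 and 12.28 against 13.06, 12.56 and 12.64 (0.98 ± 0.46, and 0.40 without untreated replicate 2), and its groups overlapped without quantile normalisation. Coro1a, an actin regulator of leukocytes, was 1.89 ± 1.01 higher on array A but 0.99 without untreated replicate 2, and C1qa, a chain of complement C1q, was 1.70 ± 0.96 higher and 0.57 without it. The difference was -0.01 for Cd68, -0.01 for Ptprc and -0.04 for Aif1, which are general markers of these cells. The part of macrophage number in the chemokine, NF-kB and MHC differences was not tested. Complement genes, several of which macrophages express, had 12 of 13 above 0 (median 0.36), and none was apart.

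Further myeloid genes were among the leading genes of array B. Trem2, a lipid receptor of macrophages, read 6.55, 5.37 and 6.70 against 7.40, 7.51 and 9.76 by 1 probe set (2.01 ± 0.65), while its brighter probe set gave 0.01 ± 0.42. The 2 probe sets of Trem2 disagree, so the gene's direction is uncertain. Il10ra, the interleukin-10 receptor, read 7.99, 6.21 and 7.54 against 8.54, 8.73 and 8.92 (1.49 ± 0.57, and 0.95 without untreated replicate 2). Cst7, the leukocyte cystatin F gene, read 8.08, 7.77 and 7.62 against 8.93, 8.71 and 8.30 (0.82 ± 0.32). Itgal, the integrin chain of LFA-1, was apart by a narrow margin (0.55 ± 0.39), which was lost without quantile normalisation.

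**Figure D2:**
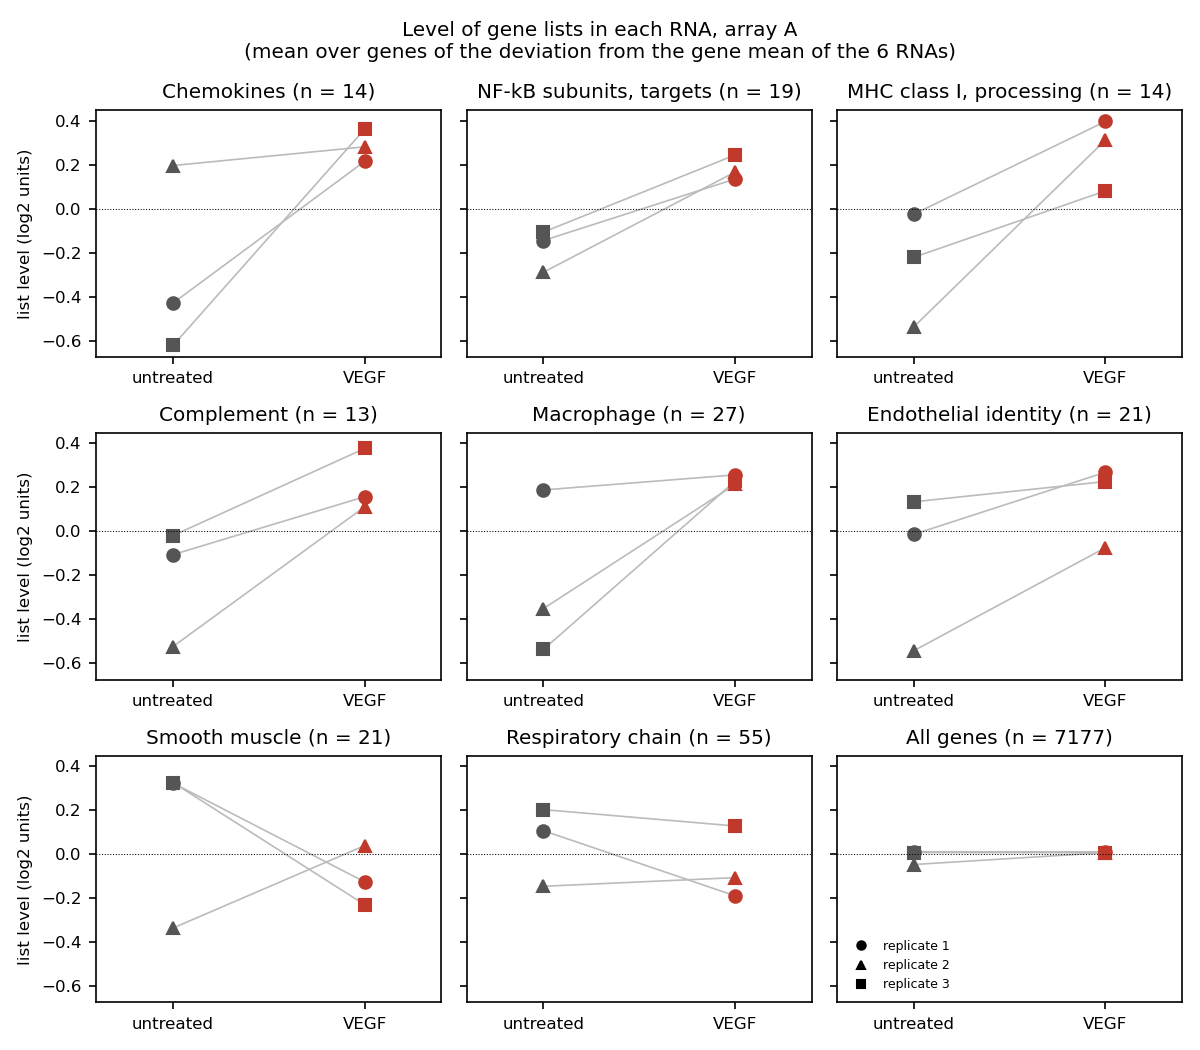
Each panel plots the level of 1 gene list on array A in the untreated and VEGF RNAs, as the mean over its genes of the deviation from the mean of the 6 RNAs in log2 units, with lines joining same-numbered RNAs and n giving the genes kept. VEGF and untreated RNAs do not overlap for chemokines, NF-kB, MHC class I, complement and macrophage genes, whereas endothelial, smooth muscle and respiratory chain genes overlap and all 7177 genes stay near 0.

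Of 21 contractile genes of smooth muscle, 3 were apart downward, against 4.57% of all genes. Pln encodes phospholamban, which restrains the calcium pump of the sarcoplasmic reticulum. It read 8.96, 9.05 and 8.80 in untreated and 7.81, 7.70 and 7.24 in VEGF RNAs, 2.56-fold lower (-1.36 ± 0.27), and a second, dimmer probe set was apart in the same direction (-0.49 ± 0.32). This was the smallest unadjusted p among the named genes of array A. Casq2, the calcium-binding protein calsequestrin of the same store, read 7.72, 8.07 and 7.63 against 7.14, 7.43 and 6.92 (-0.64 ± 0.31), although its dimmer probe set gave 0.06 ± 0.28. Cnn1, the gene of calponin, was also apart (-0.50 ± 0.31), but not without quantile normalisation. Tpm2, a muscle tropomyosin, was -0.74 ± 0.29, and Myh11, the smooth muscle myosin heavy chain, was -0.70 ± 0.39, both with overlap. Of 21 genes, 15 were below 0 (median -0.25), and the median stayed between -0.38 and -0.16 under every alternative tried. The summed levels overlapped, since untreated replicate 2 was the lowest of the 6 RNAs at -0.33. On array B 4 of 7 genes were below 0 (median -0.02).

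Several other genes, some of them of mural cells, were apart downward. Akap12, a scaffold that anchors protein kinase A, read 9.07, 9.41 and 8.91 in untreated and 8.40, 8.27 and 7.22 in VEGF RNAs (-1.17 ± 0.36). Abcc9, the regulatory subunit of the vascular potassium channel, was apart by its brighter probe set, at 10.19, 10.03 and 9.68 against 9.44, 9.35 and 9.36 (-0.58 ± 0.29), but not by its dimmer one (0.80 ± 0.99). Rgs5, a pericyte regulator of G protein signalling, read 9.19, 8.76 and 8.84 against 8.47, 8.03 and 8.68 (-0.53 ± 0.36), and overlapped without quantile normalisation. The list of pericyte genes had 5 of 9 above 0 (median 0.02, and -0.12 without untreated replicate 2), and Anpep, the aminopeptidase CD13, was 0.85 ± 0.40 higher, and 0.52 without that RNA. Cnst, whose product consortin takes part in connexin transport, read 8.90, 9.42 and 9.13 against 7.88, 8.18 and 8.19 (-1.06 ± 0.30). Plac9 on array B read 12.12, 12.30 and 12.07 against 11.11, 11.68 and 11.65 (-0.68 ± 0.30). Igfbp5, an insulin-like growth factor binding protein, read 6.92, 7.33 and 6.99 against 6.51, 6.22 and 6.58 (-0.64 ± 0.27).

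Genes of fatty acid use and of the respiratory chain gave several of the leading lower values. Fabp3, the heart-type fatty acid binding protein, read 8.24, 8.0 and 7.30 in untreated and 6.79, 6.67 and 6.36 in VEGF RNAs (-1.24 ± 0.33). Eci3, an enoyl-CoA isomerase, read 10.78, 10.73 and 10.55 against 9.77, 9.79 and 9.69 (-0.94 ± 0.24), with a narrow spread in both groups. Hadhb, a subunit of the mitochondrial trifunctional protein, was apart as well (-0.49 ± 0.26). The fatty acid list as a whole was mixed, with 16 of 30 below 0. Cox6b1, a subunit of cytochrome c oxidase, read 11.91, 11.28 and 11.20 against 10.02, 10.85 and 10.82 (-0.90 ± 0.31). Ndufa1, a subunit of complex I, read 12.40, 12.53 and 12.39 against 12.05, 12.05 and 12.09 (-0.38 ± 0.18). Of 55 respiratory chain genes, 36 were below 0 (median -0.14), 4 were apart downward and 1 upward, against 4.57% and 3.85% of all genes. Glycolytic and hypoxia genes were above 0 in 22 of 32 (median 0.16). Among them Pfkl, the liver-type phosphofructokinase, read 7.39, 6.56 and 6.82 against 7.73, 7.63 and 7.56 (0.72 ± 0.33). Slc2a1, the glucose transporter GLUT1, read 7.74, 7.88 and 7.99 against 8.45, 8.09 and 8.68 (0.53 ± 0.28).

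Chaperone and stress genes were apart in both directions. Sugt1, a co-chaperone of Hsp90, read 9.99, 9.51 and 9.07 in untreated and 8.30, 8.36 and 7.88 in VEGF RNAs (-1.35 ± 0.32). Cryab, the small heat shock protein alpha B-crystallin, read 8.47, 8.97 and 8.93 against 7.57, 7.81 and 8.14 (-0.95 ± 0.38). Hspe1, the mitochondrial co-chaperonin, was -0.66 ± 0.25 and apart. Hsf1, the master factor of the heat shock response, was 0.97 ± 0.39 higher, with overlap by 1 untreated value. The list had 20 of 28 genes above 0 (median 0.18, and 0.10 without untreated replicate 2). Genes of endoplasmic reticulum stress and amino acid supply had 32 of 39 above 0 (median 0.27, and 0.12 without untreated replicate 2), of which Asns, asparagine synthetase, was apart (0.45 ± 0.28) and the tRNA synthetase genes Sars1 (0.77 ± 0.34) and Wars1 (1.03 ± 0.52, and 0.52 without untreated replicate 2) were not. Of 39 cytosolic ribosomal protein genes 20 were above 0, and 8 were apart downward, against 4.57% of all genes, among them Rps28 (-0.63 ± 0.25), Rps29 (-0.52 ± 0.23) and Rpl23 (-0.37 ± 0.18). Without quantile normalisation 2 of the 39 were apart downward, and Rps28 and Rps29 were not among them. Atox1, a copper chaperone, read 9.78, 10.20 and 9.73 against 8.58, 8.91 and 9.22 (-1.0 ± 0.33).

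The remaining leading genes of array A had varied roles. Txndc12, a thioredoxin-like protein of the endoplasmic reticulum, read 8.22, 8.84 and 8.30 against 9.36, 9.62 and 9.30 (0.97 ± 0.30). Elovl1, which elongates very long fatty acids, was 1.17 ± 0.43 higher and 0.67 without untreated replicate 2. Nes, the intermediate filament nestin of sprouting and immature cells, read 7.67, 6.82 and 7.79 against 8.18, 8.29 and 8.51 (0.90 ± 0.33, and 0.59 without untreated replicate 2). Usp12, a ubiquitin protease, read 7.91, 8.17 and 7.31 against 6.77, 6.25 and 6.53 (-1.29 ± 0.30). Rpp30, a subunit of ribonuclease P, read 7.75, 8.05 and 7.75 against 7.08, 6.83 and 6.22 (-1.14 ± 0.30). On array B Camk2g, a calcium and calmodulin kinase subunit, read 6.44, 6.92 and 6.87 against 7.90, 7.33 and 8.18 (1.06 ± 0.39), and Robo2, a guidance receptor, read 7.75, 8.51 and 7.65 against 7.43, 7.07 and 6.70 (-0.90 ± 0.36). A second probe set of Robo2 gave 0.10 ± 0.32.

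**Figure D3:**
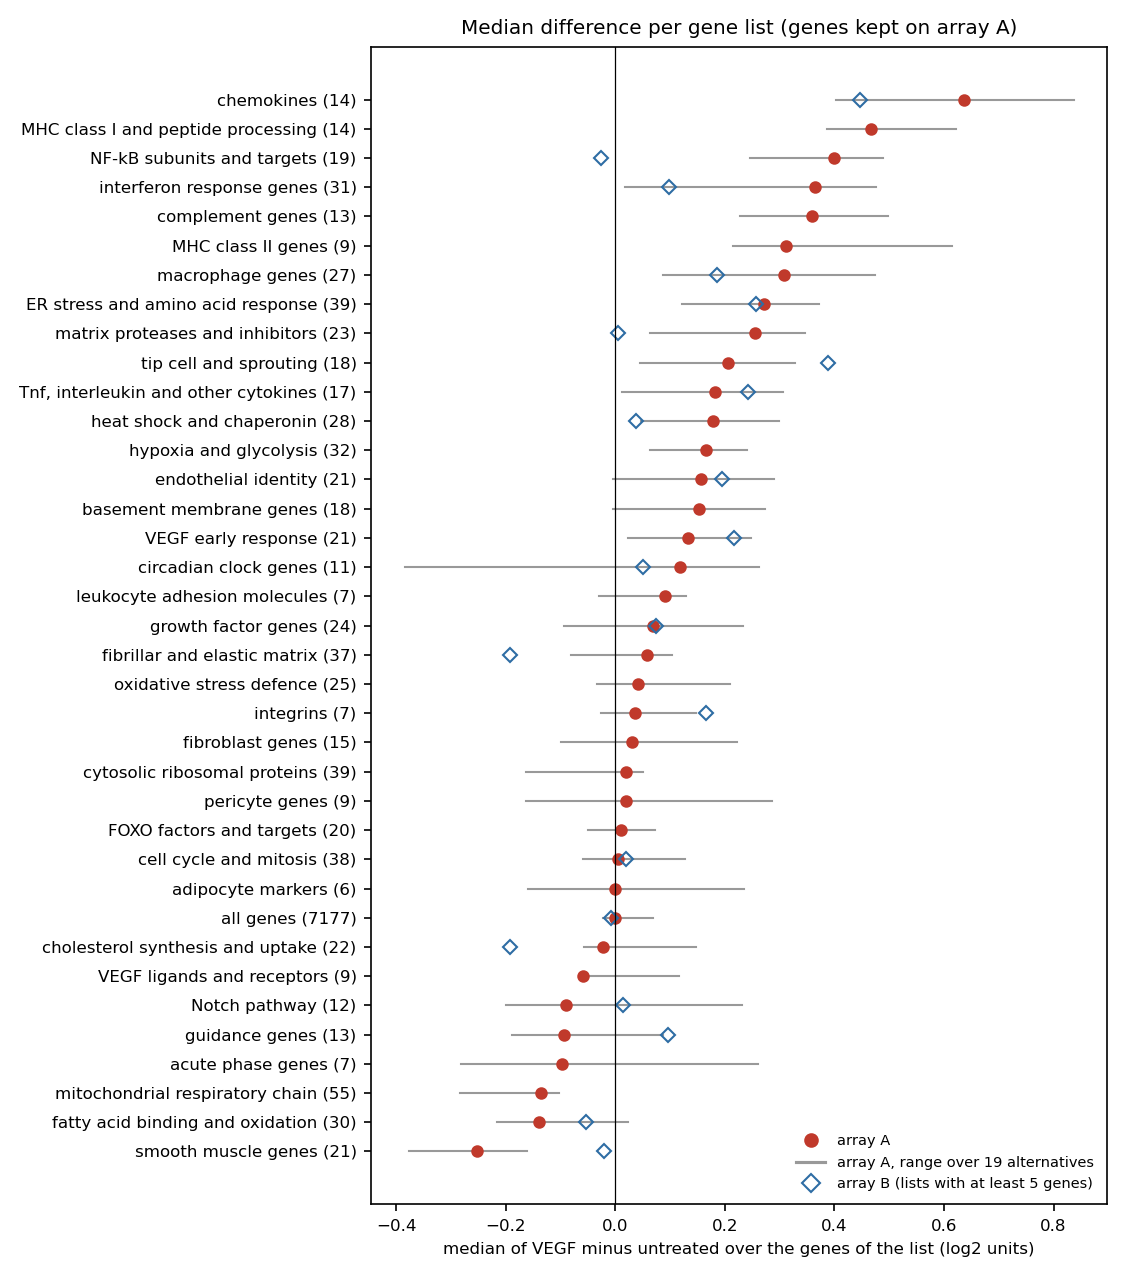
Each row is a gene list with the number of genes kept on array A in brackets, and the horizontal axis is the median of VEGF minus untreated in log2 units, as a filled circle for array A with a line for its range over 19 alternative analyses and an open diamond for array B. Chemokines (0.64), MHC class I (0.47) and NF-kB genes (0.40) lie highest and smooth muscle genes (-0.25) lowest, while all genes lie at -0.00.

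The summed levels of the VEGF and untreated RNAs did not overlap in 6 of the 36 lists with at least 5 genes on array A, and all 6 were higher after VEGF. They were chemokines, cytokines, NF-kB, complement, MHC class I and macrophage genes. On array B this held for 2 of 21 lists, cytokines and macrophage genes, the latter by less than the 2 decimals given here. With 3 against 3 values in random order, a list is apart in either direction with a probability of 0.1. The count on array B was near that share. All lists were chosen with earlier results of these data known, so neither count is a call of a response. The lists that were apart share members and cell sources, so they are not separate observations. The sign of the median was the same in the main analysis and all 19 alternatives for 16 of the 36 lists of array A, and for 9 of the 21 lists of array B.

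The 2 array types were compared gene by gene. Of 1221 genes kept on both, 1138 were read by different probe sets, and 604 of these (53.1%) had the same sign. Pearson's r of the difference across these genes was 0.06, a description over genes that share the same 6 RNAs. For 99 probe sets that both arrays carry and that were kept on each, r was 0.80 and 81 had the same sign. Only 4 genes were apart in the same direction on both array types, and 4 were apart in opposite directions. Bri3, a small membrane protein gene, was lower on array A, at 9.94, 9.79 and 9.79 against 9.26, 9.17 and 9.17, and on array B (-0.64 ± 0.24 and -0.57 ± 0.35). Poldip2, a polymerase-interacting protein, was higher on both (0.27 ± 0.25 and 1.07 ± 0.40). Without quantile normalisation the groups of both genes overlapped on array B. The other two, Mettl5 and Srp72, were lower and were read by the same probe set on both.

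**Figure D4:**
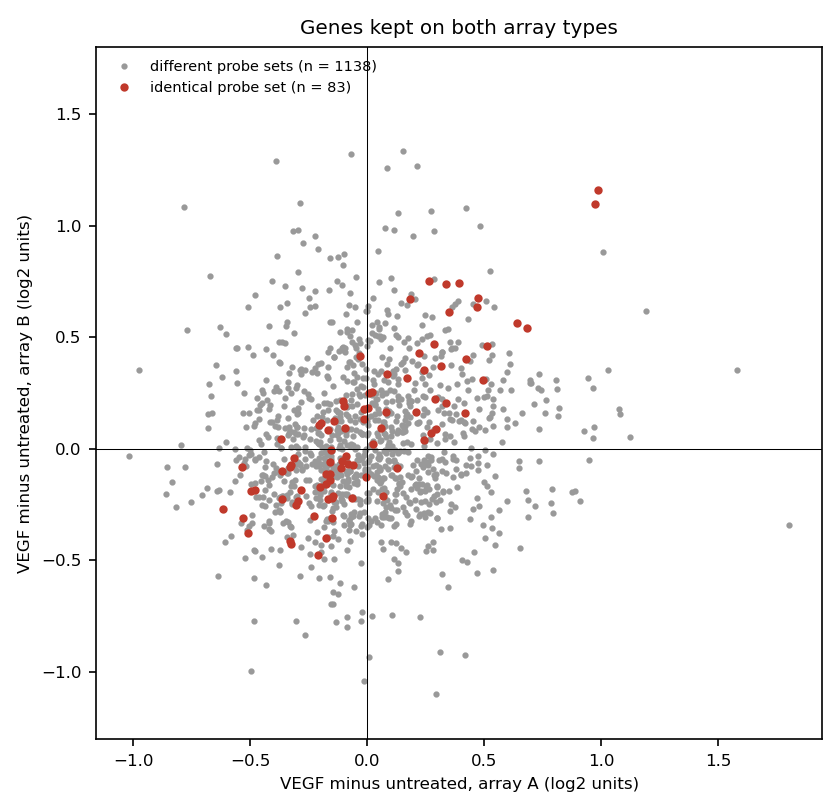
Each point is 1 of 1221 genes kept on both array types, with VEGF minus untreated in log2 units on array A along the horizontal axis and on array B along the vertical one. The 1138 genes read by different probe sets form a round cloud (r = 0.06), and the 83 read by the identical probe set follow a rising line.

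The comparison with Ang1 asks which VEGF differences are shared with a second angiogenic ligand. VEGF against Ang1 gave 0 probe sets at an adjusted p below 0.05 on either array (limma), and at an unadjusted p below 0.05 there were 189 on array A (1.99%) and 777 on array B (8.48%). Without quantile normalisation 25 passed the adjusted threshold on array B, all higher after VEGF, where Ang1 replicate 3 had been scaled to a trimmed mean of 94.8 in place of 250. The VEGF and Ang1 differences from untreated share the untreated RNAs, so they are given side by side only. For 4 inflammatory genes both were positive, with 1.20 and 1.92 for Tnf, 0.94 and 1.42 for Il1b, 1.33 and 1.84 for Cxcl2, and 0.67 and 1.5 for Ccl4. For Ccl4 the direct difference, VEGF minus Ang1, was -0.83 with an unadjusted limma p of 0.0245 (adjusted p = 0.972). Lower genes were likewise lower under both, with -1.36 and -1.23 for Pln, -0.94 and -0.98 for Eci3, -1.24 and -1.15 for Fabp3, and -1.35 and -1.42 for Sugt1. Their direct differences were -0.13, 0.04, -0.09 and 0.07.

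Other genes had differences of opposite sign under the 2 ligands. Il16 was 0.57 after VEGF and -0.25 ± 0.29 after Ang1, and the direct difference was 0.81. Its Ang1 values were 8.26, 7.71 and 8.36, against 8.33, 8.11 and 8.64 in untreated RNAs. They overlapped, so the sign of Il16 after Ang1 is uncertain. Il10ra was 1.49 after VEGF and -0.08 ± 0.57 after Ang1, and the direct difference was 1.56. Its Ang1 values were 8.07, 5.94 and 7.49, against 7.99, 6.21 and 7.54 in untreated RNAs. Replicate 2, which stood apart, was the lowest in both groups, so the sign of Il10ra after Ang1 is uncertain. Per1 and Nfil3, regulators of the circadian clock, were 0.54 and 0.64 after VEGF and -0.70 ± 0.38 and -0.65 ± 0.43 after Ang1. Both genes overlapped between Ang1 and untreated RNAs. Their direct differences were 1.24 and 1.29, with unadjusted p-values of 0.00801 and 0.0134 from limma. Rundc3a on array B read 10.13, 10.45 and 10.26 in untreated and 9.44, 9.20 and 9.46 in VEGF RNAs. It was -0.91 ± 0.31 after VEGF and 0.70 after Ang1, and VEGF minus Ang1 was -1.61, with a limma adjusted p of 0.473. Camk2g (1.23) and Trem2 by its dimmer probe set (2.22) were also higher after VEGF than after Ang1. By list, the medians after VEGF and Ang1 were 0.64 and 0.75 for chemokines, 0.40 and 0.31 for NF-kB genes, 0.47 and 0.23 for MHC class I genes, and -0.25 and -0.07 for smooth muscle genes.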

How the data were processed

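The deposited values are MAS5 signals, an intensity on a linear scale with 1 value per probe set and array, per the labels and the submitters' processing notes. Its version and settings are not stated in the sources at hand. From these, 57 control probe sets were removed, log2(signal + 16) was taken, and the arrays of each type were quantile normalised. Adding 16 before taking log2 understates the change of dim probe sets. The dimmest probe sets, those whose mean lay under the 40th percentile, were left out. All 9 arrays of a type were fitted together with limma 3.58.1 (R 4.3.3), with an intensity trend, and p-values were adjusted by Benjamini-Hochberg over each array type separately (threshold 0.05). With 3 RNAs per group an exact two-sided permutation test cannot go below p = 0.1, and the number of RNAs limits the precision.

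Symbols came from the platform annotation, updated through gene identifiers of a RefSeq table. Probe sets with several symbols were left unnamed. In lists and gene counts a gene is represented by its brightest kept probe set, while leading genes are shown by the probe set that met the rule below, which for Trem2 is a dimmer one. Lists with fewer than 5 kept genes have no counts. Genes named are those with the smallest p among probe sets whose groups do not overlap and whose gene has no kept probe set of opposite sign (15 per direction on array A, 12 on array B), up to 4 per list, and receptors and targets of VEGF. Krit1, Pdcd10, Vegfa, Vegfb, Vegfc, B2m, Psme1, RT1-A2, Cd68, Ptprc and Aif1 were added after their values were seen. The members and lists were chosen with earlier results of these data known.

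Deviations from the group means of same-numbered untreated and VEGF RNAs correlated by 0.144, 0.308 and 0.412 on array A. On array B they correlated by 0.157, 0.220 and 0.289. Same-numbered untreated and Ang1 RNAs also gave positive values throughout, from 0.142 to 0.489. For VEGF and Ang1 RNAs, replicate 1 gave 0.235 (array A) and 0.232 (array B). Replicates 2 and 3 were negative there, at -0.019 and -0.146 (array A) and -0.084 and -0.212 (array B). The design text describes shared animals, but these values differ in sign. Whether the numbers pair the RNAs by animal is therefore uncertain. The fit behind the SEs and p-values of the report is unpaired, and the replicate block was run as an alternative. Alternatives covered the scaling, pseudocount, filter, trend, array weights, block and RNAs left out. The fit was tested on simulated data.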

Additional observations from a re-analysis of the deposited data

How the results depend on the processing

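For VEGF against untreated, limma called 0 probe sets at an adjusted p below 0.05 on both array types under each alternative run. The count at an unadjusted p below 0.05 on array A (157) became 360 with no filter, 801 with array weights, 294 with the replicate block, 515 with the block and only the 6 arrays compared (chosen after seeing the data), and 302 without both RNAs that stood apart; leaving out 1 RNA gave 86 (untreated replicate 2) to 364 (Ang1 replicate 2), with 274 without untreated replicate 3. On array B (66) it became 275 with no filter, 17 with a filter at the 60th percentile, 350 with array weights, 143 with 6 arrays, 269 with 6 arrays and the block, and 123 without both RNAs; leaving out 1 RNA gave 42 (untreated replicate 2) to 153 (Ang1 replicate 2), with 110 without untreated replicate 1 and 105 without untreated replicate 3. For VEGF against Ang1 array weights called 24 on array A and 8 on array B, and unnormalised values 25 on array B. The unadjusted count on array A (189) became 533, 98, 1740, 408 and 313 with no filter, the 60th percentile, array weights, the replicate block and both RNAs left out, and 119 (without VEGF replicate 2) to 575 (without Ang1 replicate 3). On array B (777) it became 1323 unnormalised (98.4% higher against 45.9%), 512 at the 60th percentile and 1658 with array weights, and 360 (without VEGF replicate 2) to 1581 (without Ang1 replicate 3). The replicate block changed no other call. Of 123 named gene values, 117 kept their direction under all their alternatives. The others turned to -0.0095 (Nrp1), -0.075 (Pgf), -0.0046 (Nr4a1) and -0.083 (Mmp14, array B) with array weights, to 0.0017 (Rcan1) and -0.15 (Vcam1) unnormalised, to -0.064 (Nr4a1) without VEGF replicate 3, to -0.084 and -0.13 (Vcam1) without untreated replicate 1 or VEGF replicate 2, and to -0.50 and -0.52 (Mmp14, array B) without untreated replicate 2 or both RNAs. Over the RNAs left out singly these genes reached up to 0.26 (Nr4a1), 0.49 (Vcam1) and 1.27 (Mmp14, array B). Of 1083 list medians under alternatives, 64 moved by over 1 SD. The cause of these changes was not tested.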

Other observations

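Genes of cholesterol synthesis, the pathway that feeds new membrane, had 11 of 22 members above 0 on array A (median -0.02, and 0.05 without untreated replicate 2), and 3 were apart upward, against 3.85% of all genes. Lss, lanosterol synthase, read 8.11, 8.24 and 8.35 in untreated and 9.02, 8.84 and 8.70 in VEGF RNAs (0.62 ± 0.38, SE, n = 3 per group). Fdft1, squalene synthase, read 7.60, 7.72 and 7.85 against 8.37, 8.09 and 7.90 (0.39 ± 0.26), while its second probe set gave -0.00 ± 0.36. In both genes the VEGF RNAs lay above the untreated ones, in Fdft1 by a small margin in replicate 3. On array B 5 of 6 genes of the list were below 0 (median -0.19, and -0.09 without untreated replicate 2).

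Cell cycle genes were evenly split, with 19 of 38 above 0 on array A (median 0.01) and 8 of 14 on array B (median 0.02). Cdk4, a kinase of the G1 phase, was 0.91 ± 0.50 higher, with the lowest value in untreated replicate 2 (8.48 against 10.32 and 10.01), without which it was 0.34. Rrm1, a subunit of ribonucleotide reductase, read 8.49, 8.51 and 8.32 against 7.26, 8.19 and 8.11 (-0.59 ± 0.34). Genes of the fibrillar and elastic matrix had 23 of 37 above 0 on array A (median 0.06, and -0.08 without untreated replicate 2). On array B, Foxp2, a forkhead transcription factor, read 9.18, 9.77 and 9.59 against 8.96, 9.05 and 7.62, and Lrfn4, a synaptic adhesion molecule, read 7.06, 7.22 and 7.03 against 5.51, 6.82 and 5.68. Rxrg, a retinoid X receptor, read 6.88, 7.59 and 7.55 against 7.98, 8.11 and 8.59.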
